A study of Mus musculus with 17 samples.

Results

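Collagens, laminins and fibulins are proteins of the extracellular matrix, most of them secreted. The genes that encode them were followed in the thymus of mice with and without Tcf1. Members were taken by symbol from the array annotation: Col with 2 numbers around an a, Lama, Lamb or Lamc with a number, or Fbln with a number. This gave 56 of the 18194 genes with a probe set of a single symbol, namely 42 collagen, 10 laminin and 4 fibulin genes. They are read by 109 probe sets, 36 genes having more than 1, and each gene is represented by its brightest probe set, judged by the mean of the 17 arrays.

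Thymus RNA of 17 C57Bl/6 mice was hybridized to Affymetrix GeneChip mouse genome arrays, 1 array per mouse. The groups were 8 Tcf1-/- mice (ΔVII/ΔVII) with a thymic lymphoma, 4 Tcf1-/- mice (ΔVII/ΔVII) without a tumor and 5 Tcf1+/- mice (wt/ΔVII), so each mouse, the controls included, carried at least one ΔVII allele. The labels describe the input as thymus tissue that was homogenized, whereas the study's methods name thymocytes, so how much stroma entered the RNA is not settled. The labels give neither the age of the mice nor the cell stage of each lymphoma. The 3 comparisons ask how the thymus with a lymphoma differs from the tumor-free Tcf1-/- and from the Tcf1+/- thymus, and how the tumor-free Tcf1-/- thymus differs from the Tcf1+/- thymus. Values are log2 signals after RMA, a normalization that corrects background, equalizes the arrays and summarizes the probes of a probe set, so a difference of 1 is a 2-fold change.

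Collagens are trimers of 3 chains wound into a helix. The fibrillar types, among them I, II, III, V, XI and XXVII, form fibrils, type IV forms the network of basement membranes and type VI forms beaded filaments. Laminins are heterotrimers of an α, a β and a γ chain that polymerize in basement membranes and bind integrins and dystroglycan on cells, and fibulins bind laminins, elastic fibres and other matrix proteins. In the thymus, matrix of this kind lies in the capsule, the septa, the perivascular spaces and around epithelial cells, and developing thymocytes touch it as they migrate. It is made chiefly by mesenchymal, endothelial and epithelial cells.

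As to the arrays, 4 of 17 (lymphomas 1 and 2 and Tcf1+/- mice 1 and 2) had a narrower spread of signals, with an interquartile range of 2.93 to 3.06 against 3.49 to 3.75 on the other 13. In the 2 Tcf1+/- mice with narrow arrays, 35 of 39 tested members lay above the mean of the other Tcf1+/- mice, by a median of 0.25 against -0.14 over all genes tested. Y-linked genes had signal in 2 of 8 lymphomas, in 4 of 4 Tcf1-/- and in 4 of 5 Tcf1+/- mice, so this signal is unevenly shared between the groups. The targeted gene was not analysed here.

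Of the 56 genes, 17 were too dim to test. A gene was tested if it exceeded the 40th percentile of an array (4.69 to 4.98) in at least 4 arrays, which the other 39 did, 28 collagens, 8 laminins and 3 fibulins, among 13756 genes in all. The 17 dim genes stayed between 3.07 and 5.17: Col4a3, Col4a4, Col4a5, Col5a3, Col6a5, Col8a2, Col9a2, Col10a1, Col11a1, Col13a1, Col17a1, Col19a1, Col24a1, Col26a1, Lama1, Lama4 and Fbln7. In a fit without the filter, their differences between groups ranged from -0.31 to 0.29 over the 3 comparisons, and none was called (0, 1 and 1 of 17 had an unadjusted p under 0.05 for Tcf1-/- against Tcf1+/-, lymphoma against Tcf1-/- and lymphoma against Tcf1+/-). No member exceeded the 75th percentile of the array (7.29 to 7.83) in each of the 17 mice, 11 did so in at least 1 mouse, and 21 lay below the array median in every mouse. Col27a1 and Fbln2 were the brightest, each above the 75th percentile in 13 of 17 mice. The signal of a probe set depends on its probes, so these ranks do not order the genes by amount of RNA.

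**Figure D1:**
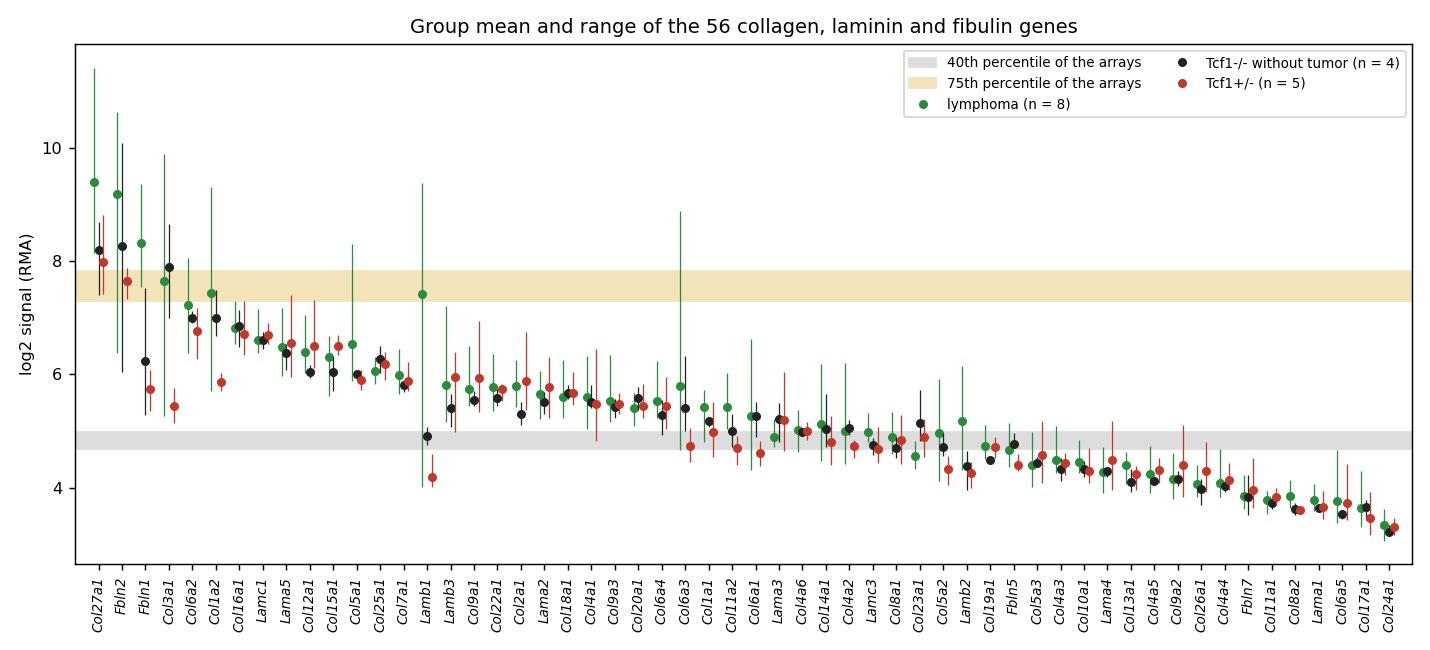
Log2 RMA signal of the 56 members, ordered along the horizontal axis by mean over 17 mice. Points are group means and lines the lowest to highest mouse, for lymphomas (green), Tcf1-/- mice without a tumor (black) and Tcf1+/- mice (red), and the bands span the 40th (4.69 to 4.98) and 75th percentiles (7.29 to 7.83) of the arrays. The long green lines of Lamb1, Col3a1, Col1a2, Col6a3 and Col27a1 show how far the lymphomas lay apart.

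Between tumor-free Tcf1-/- and Tcf1+/- thymi, 4 of the 39 tested members were called higher and 0 lower (limma, Benjamini-Hochberg adjusted p under 0.05). This is 10.3% of the members, beside 10.1 percent of all genes tested that were called higher and 4.7 percent called lower. They were the collagen chains Col3a1, Col1a2 and Col6a1 and the laminin chain Lamb1. Between lymphomas and tumor-free Tcf1-/- thymi, 1 member was higher (Fbln1; background 6.34 percent) and 1 lower (Col23a1; background 8.35 percent). Between lymphomas and Tcf1+/- thymi, 4 were higher (Fbln1, Lamb1, Lamb2 and Col11a2; 10.3%, background 8.49 percent) and 0 lower (background 4.21 percent). In this order of the comparisons, 9, 5 and 10 members had an unadjusted p under 0.05. The share of all genes at that threshold was not counted, so these numbers are not read as an excess. The median change over the tested members was 0.09, 0.19 and 0.12 on the log2 scale, against -0.01, 0.10 and 0.06 over all genes tested. The share called was thus close to or below the background, and the results lie with single genes. The lymphoma and Tcf1-/- comparisons share mice, so their values are not independent of each other.

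**Figure D2:**
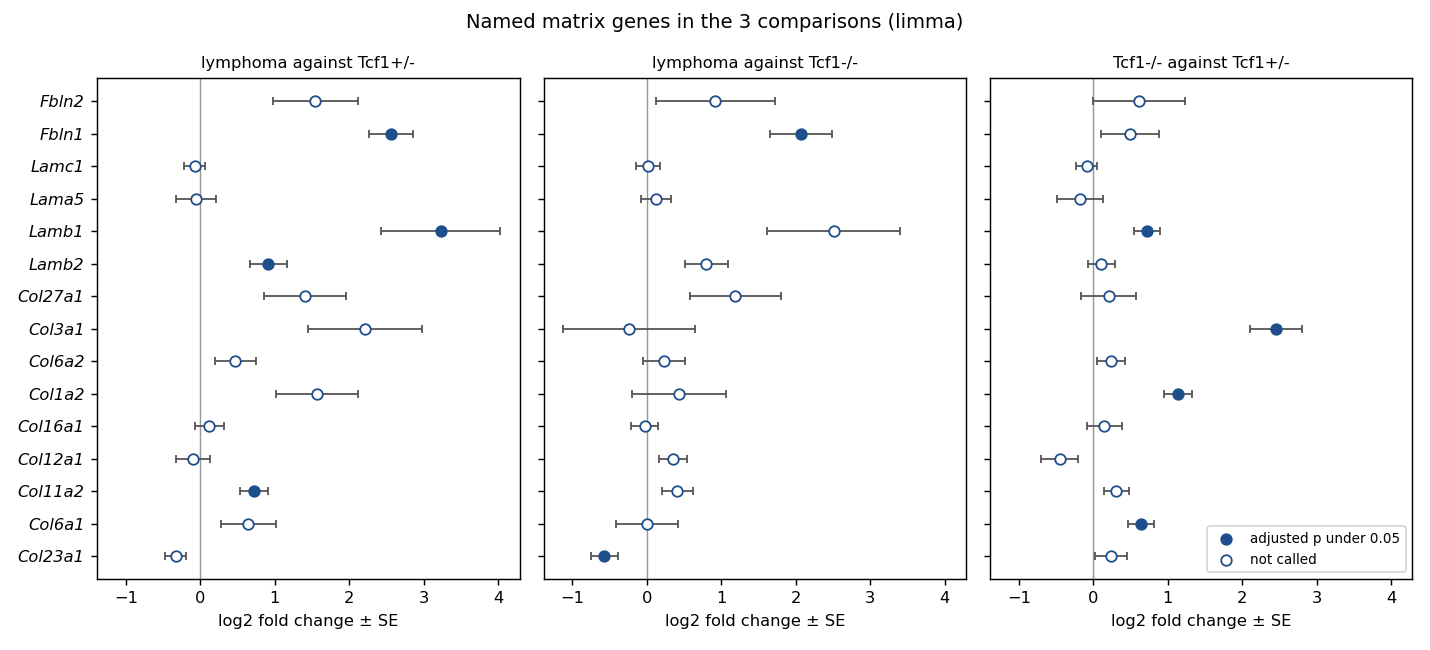
Log2 fold change ± SE (limma) of the 15 members described by mouse, for lymphoma against Tcf1+/- (left), lymphoma against Tcf1-/- (middle) and Tcf1-/- against Tcf1+/- (right). Filled points passed an adjusted p of 0.05. Lamb1 had the largest difference between lymphomas and Tcf1+/- thymi (3.23) and Col3a1 the largest between Tcf1-/- and Tcf1+/- thymi (2.45).

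To show the regulatory DNA beside the values, the 250 bases before the annotated start are given for 4 genes the results turn on, from RefSeq (GRCm38.p6), in which 42 of the 56 members had 48 promoter entries. Capitals mark motif matches. The TATA box was searched as TATAA on the coding strand. The other kinds were searched on both strands: the CCAAT box as CCAAT, the GC box as GGGCGG, the AP-1 motif as TGANTCA, and the TCF/LEF motif as CTTTGAT or as CTTTGTT.
Fbln1, chr15:85205699-85205948, plus strand: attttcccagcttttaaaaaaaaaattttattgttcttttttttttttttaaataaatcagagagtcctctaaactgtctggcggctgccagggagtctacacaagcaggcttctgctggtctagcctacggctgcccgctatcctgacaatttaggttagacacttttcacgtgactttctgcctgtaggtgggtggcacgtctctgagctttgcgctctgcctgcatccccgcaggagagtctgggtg
Col3a1, chr1:45311288-45311537, plus strand: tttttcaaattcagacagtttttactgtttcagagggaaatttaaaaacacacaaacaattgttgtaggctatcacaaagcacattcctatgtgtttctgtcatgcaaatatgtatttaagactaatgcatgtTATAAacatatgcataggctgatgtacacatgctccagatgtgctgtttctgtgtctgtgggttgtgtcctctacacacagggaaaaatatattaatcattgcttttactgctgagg
Col1a2, chr6:4505368-4505617, plus strand: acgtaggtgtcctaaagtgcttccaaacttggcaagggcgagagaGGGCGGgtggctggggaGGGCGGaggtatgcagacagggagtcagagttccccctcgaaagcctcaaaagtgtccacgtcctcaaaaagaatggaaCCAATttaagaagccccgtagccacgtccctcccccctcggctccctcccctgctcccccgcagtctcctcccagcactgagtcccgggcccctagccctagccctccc
Col6a1, chr10:76726045-76726294, minus strand: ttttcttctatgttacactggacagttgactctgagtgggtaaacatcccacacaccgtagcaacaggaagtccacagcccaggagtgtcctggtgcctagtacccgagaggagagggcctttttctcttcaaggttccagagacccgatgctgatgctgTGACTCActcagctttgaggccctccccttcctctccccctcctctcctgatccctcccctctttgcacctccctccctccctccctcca
Col3a1 and Col1a2, which shared their 5 highest lymphomas, have unlike sequences here. The Col3a1 stretch has 35.2% G and C, no CpG and a TATAA that begins 117 bases before the start. The Col1a2 stretch has 62% G and C, 11 CpG, a CCAAT 109 bases before the start and GC boxes that begin 205 and 188 bases before it. Col6a1 has a TGANTCA match 90 bases before its start, and the Fbln1 stretch (46.4% G and C) holds none of the motifs. Fbln1 has 2 promoter entries, and only the one furthest upstream is shown and described. Over all 32851 promoter entries, TATAA was found in 16%, CCAAT in 33.8%, GGGCGG in 32.7%, TGANTCA in 6.75%, CTTTGAT in 3.21% and CTTTGTT in 5.03%. Among the 48 entries of members the numbers were 9, 16, 26, 1, 1 and 1.

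Among the fibulins, Fbln1, a glycoprotein of basement membranes and elastic fibres, was higher in lymphomas than in either other group. Its signal (probe set 1451119_a_at) was between 7.54 and 9.36 with a median of 8.18 in the 8 lymphomas, 6.42, 7.52, 5.29 and 5.72 in the 4 Tcf1-/- thymi and 5.98, 6.08, 5.71, 5.36 and 5.63 in the 5 Tcf1+/- thymi. With this probe set, each lymphoma lay above each mouse of both other groups, although Tcf1-/- mouse 2 (7.52) came close to the lowest lymphoma. The difference was 2.56 ± 0.29 (SE) against Tcf1+/- thymi, a 5.88-fold change (adjusted p = 0.000127), and 2.07 ± 0.42 against Tcf1-/- thymi (4.20-fold, adjusted p = 0.00561). Both calls held when any single mouse was left out. Against Tcf1-/- thymi the call was lost once Y-linked signal entered the model (1.91, adjusted p = 0.144); its part in the difference was not tested further. It was also lost over the 4 lymphomas whose mouse numbers the Tcf1-/- group shares (1.92, adjusted p = 0.0683). The difference from Tcf1+/- thymi was 1.53 within the narrow arrays and 2.99 within the others. A second probe set of the gene (1422540_at) gave 2.32 against Tcf1+/- thymi (adjusted p = 0.0028) and 1.99 against Tcf1-/- thymi (adjusted p = 0.0133). With it the groups overlapped, as lymphoma 4 (5.43) lay below Tcf1-/- mouse 2 (6.18) and Tcf1+/- mouse 1 (5.67). The dimmest probe set (1439688_at) gave 0.24 (adjusted p = 0.433) and 0.32 (adjusted p = 0.187) and was not called.

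Fbln2, which links basement membranes and elastic fibres, was bright and varied widely among lymphomas and among Tcf1-/- thymi. In lymphomas it was between 6.38 and 10.62 (median 9.31), in Tcf1-/- thymi 6.04, 8.47, 10.08 and 8.47, and in Tcf1+/- thymi 7.72, 7.33, 7.61, 7.71 and 7.88. Of the 8 lymphomas, 7 lay above the highest Tcf1+/- mouse, while lymphoma 7 and Tcf1-/- mouse 1 lay below the lowest. With these mice included no call was made (lymphoma against Tcf1+/- 1.54 ± 0.57, adjusted p = 0.0961). Without lymphoma 7 the difference was 1.94 ± 0.36 (adjusted p = 0.00536), without Tcf1-/- mouse 1 the Tcf1-/- thymi differed from Tcf1+/- thymi by 1.35 (adjusted p = 0.032), and with the mouse number as a block, over the 5 numbers both groups have, the lymphomas differed from Tcf1+/- thymi by 2.14 ± 0.29 (adjusted p = 0.00646). That fit leaves out lymphomas 6 to 8, lymphoma 7 among them, and the same mice without the block also gave a call (adjusted p = 0.011). Fbln5, an elastic fibre protein, was dimmer, at 4.71, 4.72, 4.97 and 4.70 in Tcf1-/- thymi and 4.50, 4.60, 4.32, 4.31 and 4.29 in Tcf1+/- thymi. These 2 groups did not overlap, and the difference was not called (0.37, adjusted p = 0.111), although it was with quantile normalization (adjusted p = 0.0489), without the 4 narrow arrays (0.0249) and with the array set, narrow or wide, as a block (0.0179). Fbln5 exceeded the 40th percentile in 4 arrays only, and within these 2 groups only in Tcf1-/- mouse 3. Its second probe set (1446377_at) overlapped, at 4.16, 4.28, 4.25 and 4.38 in Tcf1-/- thymi and 4.75, 5.05, 4.16, 3.96 and 4.14 in Tcf1+/- thymi. Fbln5 is named after its values were seen.

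Lamb1, the β chain of the laminins first deposited in basement membranes, had the largest difference of any member. Its signal (probe set 1424114_s_at) was 8.14, 7.72, 8.03, 4.78, 4.01, 8.06, 9.22 and 9.38 in lymphomas 1 to 8, 4.78, 4.75, 5.07 and 5.02 in Tcf1-/- thymi, and 4.06, 4.60, 4.22, 4.01 and 4.03 in Tcf1+/- thymi. The lymphomas were split: 6 lay above 7.7, and lymphomas 4 and 5 lay at the level of the mice without a tumor. Lymphomas exceeded Tcf1+/- thymi by 3.23 ± 0.80 (9.40-fold, adjusted p = 0.0166). Their difference from Tcf1-/- thymi was 2.51 ± 0.89 and not called (adjusted p = 0.0757), and it passed without lymphoma 4 (2.89, adjusted p = 0.0298) or without lymphoma 5 (3.0, adjusted p = 0.0125). Without the 4 narrow arrays the difference from Tcf1+/- thymi was 3.16 and no longer called (adjusted p = 0.113), as it also was once Y-linked signal entered the model (2.66, adjusted p = 0.114).

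The tumor-free Tcf1-/- thymi also had more Lamb1 than Tcf1+/- thymi, with no overlap, by 0.72 ± 0.17 (1.65-fold, adjusted p = 0.0153). This call was lost without Tcf1-/- mouse 3 (0.67, adjusted p = 0.0528). A second probe set (1424113_at) showed the same split, at 4.34 and 4.16 in lymphomas 4 and 5 and 6.28 or more in the other lymphomas. It gave 2.56 for lymphomas against Tcf1+/- thymi (adjusted p = 0.0263), but 0.38 for Tcf1-/- against Tcf1+/- thymi (adjusted p = 0.257). The dimmer probe sets 1451241_at and 1446180_at gave 0.42 (adjusted p = 0.268) and -0.06 (adjusted p = 0.924) for lymphomas against Tcf1+/- thymi and were not called.

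Lamb2, the β chain of vascular and neuromuscular laminins, was near the 40th percentile, at 5.73, 5.35, 4.85, 4.31, 4.92, 5.07, 6.14 and 5.07 in lymphomas 1 to 8, 4.65, 4.28, 3.96 and 4.63 in Tcf1-/- thymi and 4.25, 4.35, 4.45, 4.00 and 4.30 in Tcf1+/- thymi. All lymphomas but lymphoma 4 lay above both other groups. Lamb2 passed the filter through these 7 lymphomas alone, and each mouse of the other groups lay below the 40th percentile of its array. Its calls are thus not independent of the filter, and its fold changes are set against dim signals. The difference from Tcf1+/- thymi was 0.91 ± 0.25 (1.88-fold, adjusted p = 0.0284), and it lost its call without Tcf1+/- mouse 1, 2, 4 or 5 (adjusted p 0.0537 to 0.0774) and without the 4 narrow arrays (0.81, adjusted p = 0.138). Against Tcf1-/- thymi it was 0.80 ± 0.29 (adjusted p = 0.0817), which passed without lymphoma 4 (0.93, adjusted p = 0.0309).

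Both other bright laminin chains, Lama5 and Lamc1, had no difference between the groups that passed the test. Lama5, the α chain of many adult basement membranes, was between 5.97 and 7.17 (median 6.47) in lymphomas, 6.08, 6.41, 6.44 and 6.54 in Tcf1-/- thymi and 7.12, 7.40, 5.95, 6.02 and 6.23 in Tcf1+/- thymi, where the 2 narrow arrays gave the high values. Lamc1, the γ chain shared by most laminins, was between 6.38 and 7.16 (median 6.55) in lymphomas, 6.63, 6.74, 6.44 and 6.59 in Tcf1-/- thymi and 6.90, 6.65, 6.73, 6.65 and 6.53 in Tcf1+/- thymi. A second Lamc1 probe set (1423885_at) differed from it. That probe set was between 4.86 and 5.77 in lymphomas, 6.65, 5.85, 6.22 and 5.91 in Tcf1-/- thymi and 5.92, 6.35, 6.18, 6.83 and 6.61 in Tcf1+/- thymi. Its lymphomas lay below each mouse of the other groups, by -1.01 against Tcf1+/- thymi (adjusted p = 0.00583 in the fit of probe sets), beside -0.08 with the first probe set, so the size of the difference and its call depend on the probe set.

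**Figure D3:**
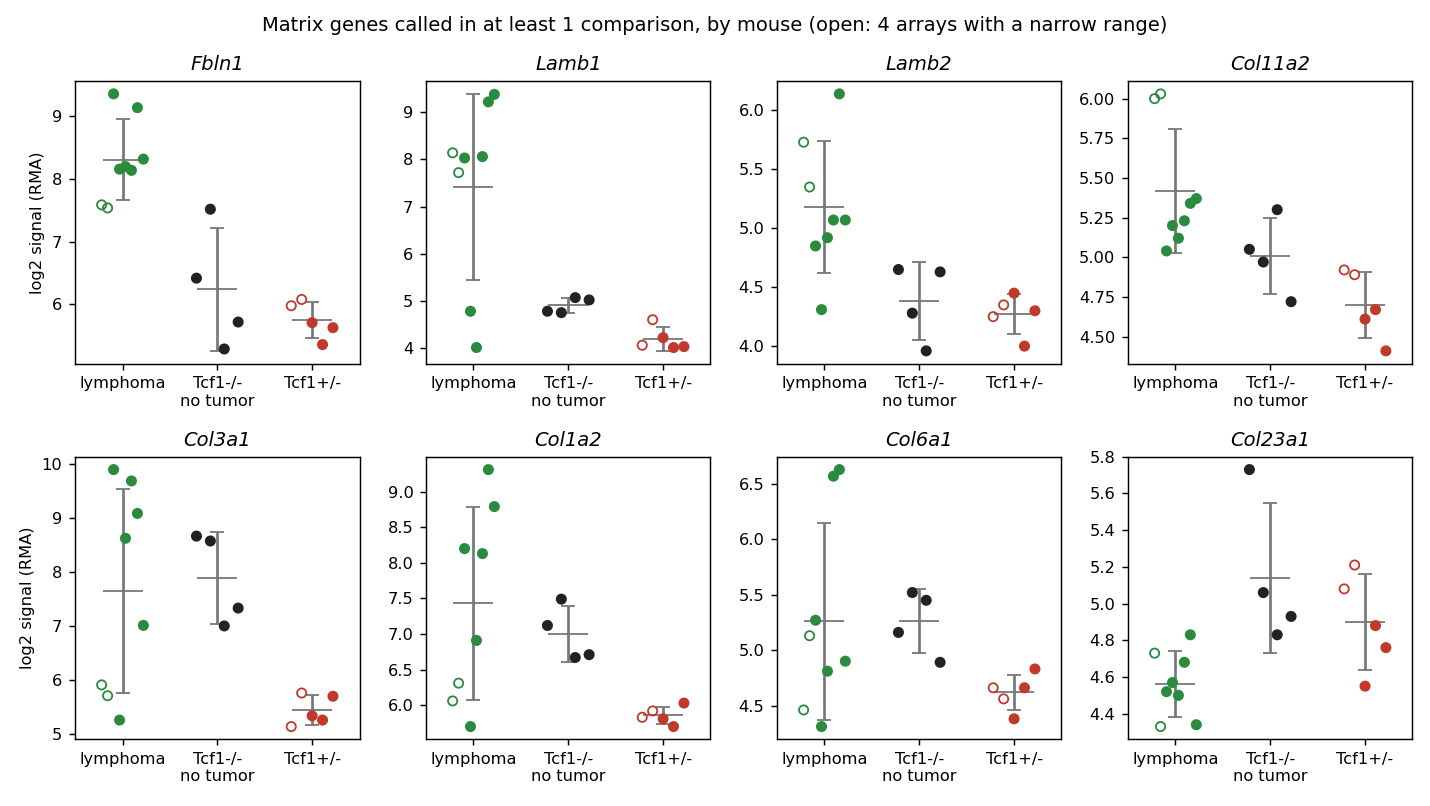
Log2 RMA signal by mouse of the 8 members called in at least 1 comparison, in lymphomas (green), Tcf1-/- mice without a tumor (black) and Tcf1+/- mice (red), with mean ± SD in grey and the 4 narrow arrays as open points. On the probe sets shown, each lymphoma exceeds the other mice for Fbln1. For Lamb1, lymphomas 4 and 5 (4.78 and 4.01) fall among the other mice.

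Of the fibrillar collagens, Col3a1, the chain of type III collagen, and Col1a2, the second chain of type I collagen, were higher in tumor-free Tcf1-/- than in Tcf1+/- thymi. Col3a1 (probe set 1427883_a_at) was 8.66, 8.57, 7.0 and 7.33 in Tcf1-/- thymi and 5.14, 5.76, 5.34, 5.26 and 5.70 in Tcf1+/- thymi, which did not overlap. The difference was 2.45 ± 0.35 (5.46-fold, adjusted p = 0.00127). Col1a2 (1450857_a_at) was 7.12, 7.49, 6.67 and 6.71 in Tcf1-/- thymi and 5.83, 5.92, 5.81, 5.70 and 6.03 in Tcf1+/- thymi, again without overlap (1.14 ± 0.19, 2.20-fold, adjusted p = 0.00279). Both calls held when any single mouse was left out and within the arrays of wide spread (2.46 and 1.15). In one fit over all 17 arrays, which takes in the spread between lymphomas, they had an adjusted p of 0.0774 and 0.298.

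A second probe set of each gene did not show the difference. For Col1a2 it (1423110_at) was 4.44, 4.70, 4.39 and 4.52 in Tcf1-/- thymi and 4.52, 5.24, 4.31, 3.91 and 3.85 in Tcf1+/- thymi (0.14, adjusted p = 0.842). For Col3a1 it (1427884_at) stayed between 3.36 and 5.05 in all mice. Col1a1, the other chain of type I collagen, is named after its values were seen. It was 5.24, 5.18, 5.24 and 5.07 in Tcf1-/- thymi and 5.24, 5.52, 5.07, 4.59 and 4.54 in Tcf1+/- thymi. The 2 groups overlapped, and Col1a1 was not called (0.19, adjusted p = 0.659).

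In the lymphomas, Col3a1 was 5.91, 5.71, 9.89, 5.26, 8.62, 9.68, 9.08 and 7.01 in lymphomas 1 to 8. Lymphomas 1, 2 and 4 were thus near the Tcf1+/- level and the other 5 well above it. Col1a2 was 6.06, 6.31, 8.20, 5.70, 6.91, 8.13, 9.31 and 8.79, and its 5 highest lymphomas were the 5 highest for Col3a1. Against Tcf1+/- thymi neither was called (Col3a1 2.21 ± 0.77, adjusted p = 0.0769; Col1a2 1.57 ± 0.55, adjusted p = 0.0799). Both passed without lymphoma 4 (adjusted p 0.0294 and 0.0304), Col3a1 also without lymphoma 2 (0.0462) and Col1a2 also without lymphoma 1 (0.0496). Within the narrow arrays the differences were 0.36 for Col3a1 and 0.31 for Col1a2, and within the others 2.82 and 1.99. Against tumor-free Tcf1-/- thymi they were -0.24 ± 0.89 and 0.43 ± 0.63, with wide overlap. With the second Col1a2 probe set (1423110_at) the difference was 1.45 ± 0.72 (adjusted p = 0.256 in the fit of probe sets). There lymphomas 3, 5, 6, 7 and 8 (6.49, 5.40, 6.10, 8.05 and 8.25) lay above the highest Tcf1-/- thymus (4.70), and lymphomas 1, 2 and 4 did not.

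Decorin (Dcn), a small proteoglycan that binds collagen fibrils and a marker of fibroblasts, was also higher in tumor-free Tcf1-/- than in Tcf1+/- thymi. It was 5.91, 5.85, 7.85, 4.33, 7.19, 9.60, 9.57 and 6.98 in lymphomas 1 to 8, 9.30, 9.56, 8.19 and 8.60 in Tcf1-/- thymi and 5.50, 5.94, 6.42, 6.47 and 6.47 in Tcf1+/- thymi. Its 5 highest lymphomas were again those of Col3a1. Col6a1, Col5a2, Col6a3, Lamb1 and Fbln1 shared 4 of these 5, and Col5a1, Col4a2, Fbln2, Lamb2 and Col27a1 shared 3. Sets of 5 among 8 lymphomas must overlap in part, so shares of 3 or 4 can arise between unrelated genes. The share over all genes was not computed. Lymphomas 3 and 8 lay below every Tcf1-/- thymus for Dcn, but above every one for Col1a2 (8.20 and 8.79). The mean of the 10 fibroblast markers, Dcn among them, was 4.80 to 5.95 in lymphomas, 5.61 to 5.91 in Tcf1-/- thymi and 5.10 to 5.29 in Tcf1+/- thymi, and among lymphomas it was above 5.4 in lymphomas 3, 6 and 7. Pdgfra, a receptor that defines fibroblasts, was dim throughout, at 4.06 to 5.03, 4.34 to 4.68 and 3.74 to 4.32 in the same order of groups. Gsn, another marker of the list, went the other way from Dcn, at 9.66 to 10.7 in Tcf1-/- and 11.04 to 11.41 in Tcf1+/- thymi. In bulk RNA, more cells that make collagen and more collagen RNA per cell cannot be told apart, and the part of fibroblast content in these differences was not tested.

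Other fibrillar chains differed less. Col27a1, a fibrillar chain best known from cartilage, was the brightest member, at 11.41, 10.01, 9.84, 8.16, 8.14, 10.67, 8.61 and 8.26 in lymphomas 1 to 8, 8.69, 8.68, 8.02 and 7.40 in Tcf1-/- thymi and 8.57, 8.82, 7.41, 7.71 and 7.42 in Tcf1+/- thymi. Lymphomas 1, 2, 3 and 6 lay above all other mice, and the difference from Tcf1+/- thymi was 1.40 ± 0.55 (adjusted p = 0.123), or 1.53 ± 0.36 with the mouse number as a block (adjusted p = 0.0348; 0.178 for the same mice without it). With the array set as a block it was 1.63 ± 0.42 (adjusted p = 0.0129), and a second probe set (1429549_at) gave 1.15 (adjusted p = 0.0403 in the fit of probe sets). Col11a2, a chain of type XI collagen, was 6.00, 6.03, 5.04, 5.20, 5.12, 5.23, 5.34 and 5.37 in lymphomas, 5.05, 4.97, 5.30 and 4.72 in Tcf1-/- thymi and 4.92, 4.89, 4.61, 4.67 and 4.41 in Tcf1+/- thymi. Lymphomas and Tcf1+/- thymi did not overlap (0.72 ± 0.19, 1.64-fold, adjusted p = 0.0259), and the 2 highest values were on narrow arrays, yet the call held without the 4 narrow arrays. It was lost without Tcf1+/- mouse 3, 4 or 5 (adjusted p 0.059 to 0.0791). Col5a2, a chain of the type V collagen found within type I fibrils, was 4.56, 4.97, 4.68 and 4.69 in Tcf1-/- thymi and 4.56, 4.09, 4.05, 4.44 and 4.56 in Tcf1+/- thymi (0.38, adjusted p = 0.179), and is named, like Col5a1 and Col6a3, after its values were seen.

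Of the type VI chains, which form filaments between cells and fibrils, Col6a1 was 5.16, 5.52, 5.45 and 4.89 in Tcf1-/- thymi and 4.66, 4.56, 4.38, 4.66 and 4.83 in Tcf1+/- thymi, without overlap. The difference was 0.64 ± 0.17 (1.56-fold, adjusted p = 0.0294), and the call was lost without Tcf1-/- mouse 2 or 3 or Tcf1+/- mouse 2, 3 or 4 (adjusted p 0.053 to 0.101). In lymphomas Col6a1 was between 4.31 and 6.63 (median 5.01), with lymphomas 6 and 7 highest. Its partner Col6a2 was brighter, at 6.38 to 8.05 (median 7.24) in lymphomas, 6.90, 6.99, 7.12 and 6.99 in Tcf1-/- thymi and 7.17, 6.95, 6.28, 6.78 and 6.61 in Tcf1+/- thymi, and lymphoma 6 was highest again. It was called in none of the comparisons (0.24, adjusted p = 0.495, for Tcf1-/- against Tcf1+/-). The third chain, Col6a3, stood out in a single lymphoma, with 8.89 in lymphoma 5 and 4.66 to 5.92 in the other lymphomas. Col5a1 did so in lymphoma 7 (8.30, against 5.89 to 6.73 in the others).

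Col23a1, a collagen that spans the cell membrane, was lower in lymphomas than in tumor-free Tcf1-/- thymi. It was near the 40th percentile, at 4.33 to 4.83 (median 4.55) in lymphomas, 5.73, 5.06, 4.83 and 4.93 in Tcf1-/- thymi and 5.08, 5.21, 4.55, 4.88 and 4.76 in Tcf1+/- thymi. Of the lymphomas 7 lay below the lowest Tcf1-/- mouse. The difference of -0.57 ± 0.18 (adjusted p = 0.0472) was called in 2 of 12 fits that left out 1 mouse, those without Tcf1-/- mouse 3 or lymphoma 7, and the adjusted p reached 0.175 without Tcf1-/- mouse 1. Its other probe sets were dim and gave 0.27 and -0.07, neither called. Col16a1 and Col12a1, which attach to the surface of fibrils, were among the brighter collagens. Col16a1 was 6.54 to 7.30 (median 6.71) in lymphomas, 7.09, 6.71, 7.13 and 6.49 in Tcf1-/- thymi and 7.29, 6.96, 6.55, 6.38 and 6.35 in Tcf1+/- thymi. Col12a1 was 6.02 to 7.04 (median 6.29) in lymphomas, 5.94, 6.03, 6.16 and 6.08 in Tcf1-/- thymi and 7.32, 6.73, 6.23, 6.11 and 6.11 in Tcf1+/- thymi. Neither was called, and for both the highest lymphoma and the highest Tcf1+/- thymus were narrow arrays.

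Chains of basement membrane collagens, named after their values were seen, gave no call either. Col4a2, of the type IV network, was 4.93, 4.97, 5.15 and 5.20 in Tcf1-/- thymi and 4.70, 4.85, 4.77, 4.53 and 4.81 in Tcf1+/- thymi, and its partner Col4a1 was 5.41, 5.81, 5.40 and 5.41 in Tcf1-/- thymi and 5.94, 6.45, 4.82, 5.18 and 5.02 in Tcf1+/- thymi. For Col4a2 the groups did not overlap (0.33, adjusted p = 0.148). Col15a1, which lies at the outer face of basement membranes, was 5.71, 6.30, 6.06 and 6.13 in Tcf1-/- thymi and 6.50, 6.69, 6.60, 6.35 and 6.34 in Tcf1+/- thymi. It was the single member with all Tcf1-/- mice below all Tcf1+/- mice (-0.45, adjusted p = 0.0965). Without overlap between these groups there were thus 7 members higher and 1 lower of 39, or 8 in all, beside 17.3% of all genes tested.

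**Figure D4:**
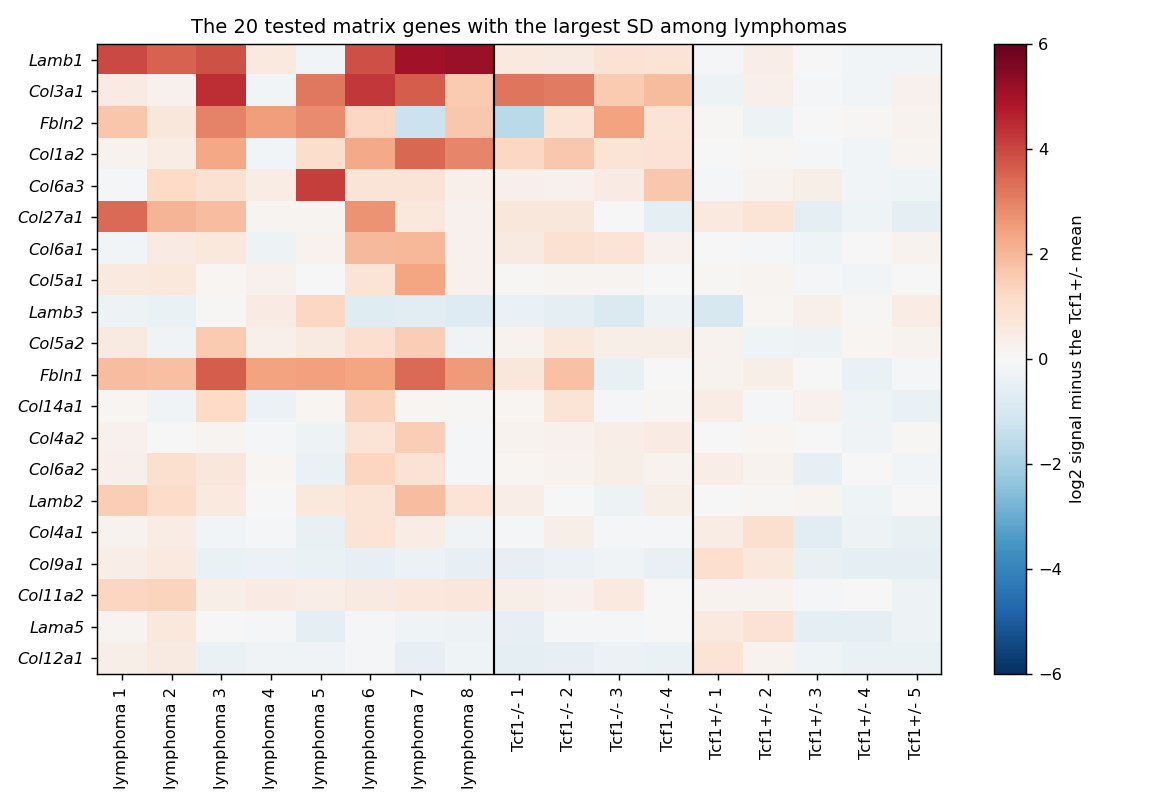
Log2 RMA signal minus the Tcf1+/- mean in each of 17 mice (columns, lymphomas left, then Tcf1-/- and Tcf1+/- mice) for the 20 tested members with the largest SD among lymphomas (rows, largest at the top; red is above and blue below the Tcf1+/- mean). The lymphomas differ from one another in which genes are high: Lamb1 in all but lymphomas 4 and 5, Col3a1 in lymphomas 3, 5, 6, 7 and 8, and Col6a3 in lymphoma 5.

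For most members, as for most genes, the lymphomas varied more among themselves than the Tcf1+/- thymi did. The SD among lymphomas was larger than among Tcf1+/- thymi for 25 of 39 members (64.1%), beside 66% of all genes tested. It exceeded 1 for 6 members (15.4%, beside 7.57% of all genes tested), namely Lamb1, Col3a1, Fbln2, Col1a2, Col6a3 and Col27a1. Among Tcf1-/- thymi it exceeded 1 for 1 member, Fbln2, and among Tcf1+/- thymi for 0. The patterns were not shared by all 6. Lymphomas 1 and 2 had high Lamb1 and Tcf1+/- levels of Col3a1. Lymphoma 5 had high Col3a1 and no more Lamb1 than the Tcf1+/- thymi. Lymphoma 4 was the lowest for Col3a1 and Col1a2 and high for Fbln1 (8.16) and Fbln2 (10.18). The second Fbln1 probe set (1422540_at), however, gave 5.43 in lymphoma 4 and 6.59 or more in the other lymphomas.

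Other genes of the matrix were counted by lists of their roles. The counts are read against the shares of all genes tested that were called: 10.1 percent higher and 4.7 percent lower in Tcf1-/- than in Tcf1+/- thymi, 6.34 and 8.35 percent in lymphomas against Tcf1-/- thymi, and 8.49 and 4.21 percent in lymphomas against Tcf1+/- thymi. The lists hold 9 to 15 tested genes each, so a single call is a large share of a list. Of 15 tested genes that process and cross-link collagen, 4 were higher and 1 lower in Tcf1-/- than in Tcf1+/- thymi. Crtap, a partner of prolyl 3-hydroxylase, was higher by 1.12 (adjusted p = 0.00133), Pcolce, an enhancer of procollagen cleavage, by 1.13 (adjusted p = 0.00697), and Colgalt1, which adds galactose to collagen, by 1.03 (adjusted p = 0.00406), while Plod2, a lysyl hydroxylase, changed by -1.71 (adjusted p = 0.00201). In lymphomas against Tcf1+/- thymi 3 were higher, P4ha1 (0.89), Colgalt1 (0.78) and Crtap (0.75), and none was lower. Between lymphomas and Tcf1-/- thymi limma called 0 of the 15, and 2 had an unadjusted p under 0.05. The median change of these 15 genes was 0.24 in Tcf1-/- and 0.40 in lymphomas against Tcf1+/- thymi, beside -0.01 and 0.06 over all genes tested.

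Of 9 tested basement membrane partners, 2 were higher and 1 lower in Tcf1-/- than in Tcf1+/- thymi. Nid1, which ties laminin to type IV collagen, was 7.57, 6.73, 6.28 and 5.27 in Tcf1-/- thymi and 4.33, 4.43, 4.44, 4.29 and 3.88 in Tcf1+/- thymi (2.19, adjusted p = 0.00344), and it was lower in lymphomas than in Tcf1-/- thymi (-1.61, adjusted p = 0.0379). Agrn, a heparan sulphate proteoglycan that binds laminin, was higher than in Tcf1+/- thymi both in lymphomas (1.33, adjusted p = 0.000284) and in Tcf1-/- thymi (1.52, adjusted p = 0.000723). Smoc1, a calcium-binding basement membrane protein, was lower in both (-1.83, adjusted p = 6.9e-05, and -2.22, adjusted p = 0.000158). Egfl7, a matrix protein of vessels, exceeded both other groups in lymphomas, by 1.04 over Tcf1-/- thymi (adjusted p = 0.0168) and by 0.85 over Tcf1+/- thymi (adjusted p = 0.0187).

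Of 9 tested genes of elastic fibres, Emilin2 and Efemp1 were higher in Tcf1-/- than in Tcf1+/- thymi (3.36, adjusted p = 0.00397, and 1.67, adjusted p = 0.0232) and Emilin1 lower (-1.67, adjusted p = 0.00397). Emilin2 was lower in lymphomas than in Tcf1-/- thymi by -3.80 (adjusted p = 0.000322), and Ltbp3, which binds latent TGF-β, exceeded Tcf1+/- thymi in lymphomas (0.94, adjusted p = 0.0341). Of 9 small proteoglycans and matricellular proteins, Dcn (2.75, adjusted p = 0.000398), Ecm1 (2.65, adjusted p = 0.0188) and Thbs1 (1.97, adjusted p = 0.0295) were higher in Tcf1-/- than in Tcf1+/- thymi. Ecm1 and Thbs1 were lower in lymphomas than in Tcf1-/- thymi (-2.72 and -2.21), and between lymphomas and Tcf1+/- thymi limma called 0 of the 9, with 1 at an unadjusted p under 0.05.

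Of 14 tested receptors of collagen and laminin, 3 were higher in Tcf1-/- than in Tcf1+/- thymi and 0 lower. Ddr1, a receptor tyrosine kinase that binds collagen, was 7.92 to 10.88 in lymphomas, 7.85 to 9.09 in Tcf1-/- thymi and 5.74 to 7.34 in Tcf1+/- thymi, and was higher than in Tcf1+/- thymi in lymphomas (3.05, adjusted p = 0.00111) and in Tcf1-/- thymi (1.67, adjusted p = 0.00991). The integrin chain Itga1 and the inhibitory collagen receptor Lair1 were higher in Tcf1-/- than in Tcf1+/- thymi (1.47 and 1.12) and lower in lymphomas than in Tcf1-/- thymi (-1.58 and -1.74), and Lair1 was also lower in lymphomas than in Tcf1+/- thymi (-0.63). Of 12 tested proteases and inhibitors, 7 were higher in Tcf1-/- than in Tcf1+/- thymi, led by the secreted proteases Mmp9 (2.09, adjusted p = 0.00192) and Mmp8 (1.87, adjusted p = 0.035). Of the 12, 2 were lower in lymphomas than in Tcf1-/- thymi (Mmp8 and Mmp2) and 2 higher in lymphomas than in Tcf1+/- thymi (Mmp14 and Timp2). Their median change was 0.63 in Tcf1-/- and 0.48 in lymphomas against Tcf1+/- thymi. For the basement membrane partners it was -0.11 and 0.17, for elastic fibres 0.12 and 0.25, for small proteoglycans 0.27 and 0.06 and for receptors 0.23 and -0.01. Mmp14, a membrane-bound collagenase, was 6.02 to 9.83 in lymphomas, 6.41 to 7.48 in Tcf1-/- thymi and 5.17 to 6.45 in Tcf1+/- thymi, and differed from Tcf1+/- thymi by 2.56 in lymphomas (adjusted p = 0.0169) and by 1.19 in Tcf1-/- thymi (adjusted p = 0.0196).

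**Figure D5:**
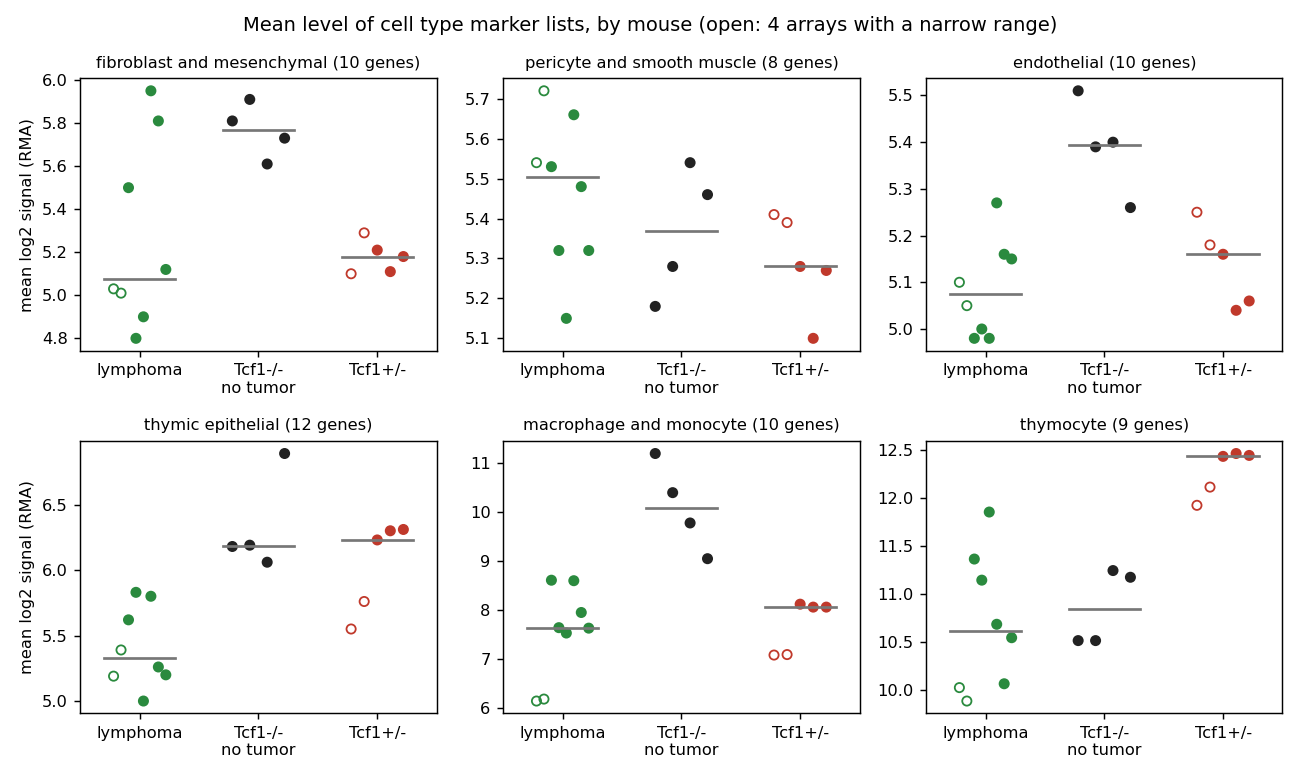
Mean log2 RMA signal of the genes of 6 cell type marker lists by mouse, in lymphomas (green), Tcf1-/- mice without a tumor (black) and Tcf1+/- mice (red), with group medians as grey lines and the 4 narrow arrays as open points. The macrophage mean is 9.05 to 11.2 in Tcf1-/- mice, above all other mice, and the fibroblast mean is highest in lymphoma 6 (5.95).

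Marker genes of several cell types found in a thymus also differed between the groups, and limma called none of these markers higher in lymphomas than in either other group. All 10 macrophage markers were higher in Tcf1-/- than in Tcf1+/- thymi, with a list mean of 9.05 to 11.2 against 7.08 to 8.12, and 9 were lower in lymphomas (list mean 6.14 to 8.61) than in Tcf1-/- thymi. Of 7 tested fibroblast markers, 3 were higher (Dcn, Cd34 and Pi16) and 1 lower (Gsn) in Tcf1-/- than in Tcf1+/- thymi, between lymphomas and Tcf1-/- thymi 2 were lower (Cd34 and Pi16; list median -0.92), and between lymphomas and Tcf1+/- thymi 0 were higher and 1 (Gsn) lower. Of 6 tested pericyte and smooth muscle markers limma called 0 in each comparison (0 or 1 at an unadjusted p under 0.05), with list means of 5.15 to 5.72 in lymphomas, 5.18 to 5.54 in Tcf1-/- and 5.10 to 5.41 in Tcf1+/- thymi. Of 6 endothelial markers, Cdh5 was higher in Tcf1-/- than in Tcf1+/- thymi (0.84), and Cdh5 and Kdr were lower in lymphomas than in Tcf1-/- thymi (-0.69 and -0.70; list median -0.45). The list mean was 4.98 to 5.27 in lymphomas, 5.26 to 5.51 in Tcf1-/- and 5.04 to 5.25 in Tcf1+/- thymi. Thymic epithelial markers averaged 5.00 to 5.83 in lymphomas, 6.06 to 6.89 in Tcf1-/- and 5.55 to 6.31 in Tcf1+/- thymi, and 4 of 11, among them Psmb11 and Prss16, were lower in lymphomas than in Tcf1-/- thymi. Of 3 mesothelial markers, Upk3b and Lrrn4 were lower in lymphomas than in Tcf1-/- thymi (list median -1.21), and Upk3b was higher in Tcf1-/- than in Tcf1+/- thymi (1.44). Mesothelial and adipocyte markers averaged 4.61 to 5.28 and 4.38 to 6.09 in lymphomas, 4.66 to 5.85 and 5.28 to 5.94 in Tcf1-/- thymi, and 4.46 to 4.90 and 4.62 to 5.18 in Tcf1+/- thymi. Thymocyte markers, with a list mean of 9.88 to 11.85 in lymphomas, 10.51 to 11.24 in Tcf1-/- and 11.92 to 12.46 in Tcf1+/- thymi, were lower for 7 of 9 genes in Tcf1-/- than in Tcf1+/- thymi and for 6 of 9 in lymphomas than in Tcf1+/- thymi. The part of these cell types in the differences of collagens, laminins and fibulins was not tested.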

How the data were processed

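Total RNA of homogenized thymus (per the labels; thymocytes in the study's methods) was hybridized by the authors to Affymetrix GeneChip mouse genome arrays after one-cycle cDNA synthesis and biotin labelling. The deposited values are log2 signals that the authors obtained with RMA, with array analysis in R and Bioconductor. Whether the 17 arrays were normalized together is not given in the sources used here. Of 45101 probe sets, 34958 carry 1 gene symbol in the platform annotation, which can be old, and 932 several; only the first were used. As arrays give no read depth, the number of mice limits the precision.

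Groups were taken from sample titles and strains. Each pair of groups was fitted alone with limma 3.58.1 in R 4.3.3 over 13756 genes (above the 40th percentile in at least 4 arrays), with Benjamini-Hochberg adjustment over all of them, and genes at an adjusted p under 0.05 were called. All tests are two-sided. The labels call the mice separate animals and describe no other replication.

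Members given by mouse are those called, up to 12 per comparison, and the brightest 6 collagens, 3 laminins and 2 fibulins. From each matrix list up to 4 called genes were named. The members and the lists were chosen with earlier results of these data known. Fits were tested on simulated data. Alternatives changed the filter, the probe set rule, the normalization, the variance model, the arrays in the fit and the mice; those on narrow arrays, array set, Y-linked signal and mice of shared numbers without the block were chosen after seeing the data.

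Mouse numbers are shared between groups. Over the 5 shared numbers, deviations of lymphomas and Tcf1+/- mice of the same number correlated by 0.246 to 0.625, and 2 of the 5 were closest to their own number; numbers 1 and 2 are the narrow arrays in both groups. The labels do not say that mice of the same number were paired, and the block in part repeats the array set. It is given beside results of that comparison where it changed a call. Promoters are from RefSeq (GRCm38.p6). Some genes are not reported here.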

Additional observations from a re-analysis of the deposited data

Results flagged for a closer look

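Among 168 sets of values (56 genes in 3 groups), 11 held a mouse far from the others of its group by Dixon's test, 8 of them in genes that passed the filter. By chance a share near the test's 5% would be flagged. In lymphomas these were lymphoma 7 for Col5a1 (8.30, others 5.89 to 6.73), lymphoma 5 for Col6a3 (8.89, others 4.66 to 5.92), lymphoma 2 for Col9a3 (6.35, others 5.16 to 5.68) and lymphoma 1 for Lamc1 (7.16, others 6.38 to 6.67). In Tcf1-/- thymi they were mouse 2 for Col4a1 (5.81, others 5.40 to 5.41), mouse 4 for Col6a3 (6.33, others 5.01 to 5.21) and mouse 3 for Fbln5 (4.97, others 4.70 to 4.72). In Tcf1+/- thymi it was mouse 1 for Lamb3 (4.98, others 6.02 to 6.40). The dim genes Col11a1 (3.54 in lymphoma 4), Col4a4 (4.68 in lymphoma 2) and Col6a5 (4.67 in lymphoma 1) were flagged too. Lymphomas 1 and 2 and Tcf1+/- mouse 1 are narrow arrays.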

How the results depend on the processing

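Fbln1 against Tcf1+/- thymi was called in all alternatives run, and the other calls depended on at least 1. The 60th percentile as the filter left 16 members to test in place of 39. The mean of all probe sets left 31 and the probe set of highest variance 36. A member that such a setting leaves untested cannot be called there, so fewer calls need not mean a changed difference. For Tcf1-/- against Tcf1+/- thymi, the 4 genes called higher became 0 in one fit over all 17 arrays, 2 (Col3a1 and Col1a2) with the mouse number as a replicate block or a fold change of at least 1 on the log2 scale, and 2 (Col3a1 and Col6a1) with the mean of all probe sets. They became 5, with Fbln5, under quantile normalization, without the 4 narrow arrays or with the array set as a block. The 0 called lower became 1 (Lamb3) without the 4 narrow arrays or with the array set as a block. Leaving out 1 mouse gave 2 to 5 higher and 0 to 1 lower.

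For lymphomas against Tcf1-/- thymi, the 1 called higher became 3 in the fit over all arrays (with Lamb1 and Lamb2), 2 with quantile normalization or median centring (with Col2a1) and 0 once Y-linked signal entered the model. The 1 called lower became 0 with the replicate block, with the mice of shared numbers and no block (where Col2a1 was the 1 called higher), the 60th percentile as the filter, the mean of all probe sets, quantile normalization, median centring, a fold change of at least 1, without the narrow arrays, and once Y-linked signal entered the model. With the block, over 4 shared numbers, Fbln1 was at 1.92 (adjusted p = 0.145) and Col27a1 was called (1.66, adjusted p = 0.0485). Leaving out 1 mouse gave 1 to 3 higher and 0 to 1 lower. Lamc1 turned from 0.01 to -0.79 (adjusted p = 0.0277) with the probe set of highest variance.

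For lymphomas against Tcf1+/- thymi, the 4 called higher became 2 with the 60th percentile as the filter or a fold change of at least 1 (Fbln1 and Lamb1), 2 without the narrow arrays (Fbln1 and Col11a2), 2 with the mice of shared numbers and no block (Fbln1 and Fbln2) and 1 (Fbln1) once Y-linked signal entered the model. They became 5 in one fit over all 17 arrays (with Col1a2) and 6 with the array set as a block (with Col1a1 and Col27a1). The 0 called lower became 1 (Lamc1) with the mean of all probe sets or the probe set of highest variance. Leaving out 1 mouse gave 2 to 6 higher and 0 to 0 lower. In this comparison the replicate block made 6 calls, the same 4 and those of Fbln2 and Col27a1. The block fit also leaves out lymphomas 6 to 8, so it changes 2 choices at once. Over all genes it called 1784, against 1747 with all mice and 686 with the same mice and no block.

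Genes called over all genes with the block were 1257 against 2037 for Tcf1-/- against Tcf1+/- thymi and 584 against 2020 for lymphomas against Tcf1-/- thymi, where same-numbered mice did not all deviate together (correlations -0.286 to 0.12 and -0.189 to 0.0913). These fits hold fewer mice; the same mice without the block gave 1595 and 951. Causes of the other changes were not tested. Few mice per group and signals near the 40th percentile limit the dim genes.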
